A study of Homo sapiens with 6 samples.

Results

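The neutrophil-attracting CXCL chemokines were taken as 6 genes, CXCL1, CXCL2, CXCL3, CXCL5, CXCL6 and CXCL8, chosen by name. On the array they were represented by every probe set annotated with one of these symbols and no other, 11 of the 54613 probe sets that are not controls, or 6 of 19775 named genes. The study asked how expression in CaSki cells changes with recombinant TGF-β1. CaSki is an established human cervical squamous cell carcinoma line with integrated papillomavirus DNA, and all cells were grown in RPMI1640 with fetal bovine serum. The untreated group (3 arrays) received medium without the factor and the TGF-β1 group (3 arrays) received 2 ng/mL of recombinant TGF-β1. A single line was used, the labels name no treatment time, and nothing says whether the arrays of a group came from separate cultures. The p-values therefore measure the spread between these arrays, which may be technical.

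CXCL chemokines with the glutamate-leucine-arginine (ELR) motif bind the receptors CXCR1 and CXCR2 on neutrophils and draw these cells out of the blood. Epithelial and tumour cells release them when interleukin-1, tumour necrosis factor or injury activates NF-κB, and the mRNAs are short-lived because AU-rich elements mark them for decay. CXCL8 (interleukin-8) and CXCL6 act on both receptors, while CXCL1, CXCL2 and CXCL3 (the GRO proteins) and CXCL5 act mainly through CXCR2. TGF-β is known to restrain inflammatory gene expression in many epithelia.

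The 6 genes lie together on chromosome 4, and their promoters carry the same letters of an NF-κB (κB) site. The sequences below show that site, because NF-κB is the best-known activator of these genes. Each is 60 bases of the GRCh38.p14 promoter window from RefSeq, read 5′ to 3′ along the gene, with the κB letters GGAATTTCC in capitals. All 6 members had an entry in the RefSeq promoter table. The intervals are chr4:73869290-73869349 (plus strand) for CXCL1, chr4:74099238-74099297 (minus strand) for CXCL2, chr4:74038733-74038792 (minus strand) for CXCL3, chr4:73998733-73998792 (minus strand) for CXCL5, chr4:73836564-73836623 (plus strand) for CXCL6 and chr4:73740453-73740512 (plus strand) for CXCL8.
CXCL1: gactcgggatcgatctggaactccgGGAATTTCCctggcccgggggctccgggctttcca
CXCL2: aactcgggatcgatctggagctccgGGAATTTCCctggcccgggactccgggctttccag
CXCL3: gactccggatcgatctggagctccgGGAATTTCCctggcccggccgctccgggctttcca
CXCL5: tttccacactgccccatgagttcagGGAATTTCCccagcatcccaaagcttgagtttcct
CXCL6: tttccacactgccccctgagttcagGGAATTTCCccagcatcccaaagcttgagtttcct
CXCL8: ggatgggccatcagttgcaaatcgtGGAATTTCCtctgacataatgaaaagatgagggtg

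The flanks fell into 3 kinds. Aligned on the κB letters without gaps, the CXCL5 and CXCL6 windows were identical at 50 of 51 flanking bases. CXCL1 and CXCL3 were identical at 47, CXCL1 and CXCL2 at 39 and CXCL2 and CXCL3 at 38 of these bases. CXCL8 shared 9 to 15 of them with the other members. The κB letters began 77 or 78 bases before the annotated start in CXCL1, CXCL2 and CXCL3, and 89 to 91 bases before it in CXCL5, CXCL6 and CXCL8.

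The letters, searched on both strands, occurred in 129 of 27305 promoter windows of 300 bases (0.472%). The CXCL8 window also held an AP-1 motif. This window, chr4:73740319-73740618 on the plus strand, runs from 250 bases before the start to 50 after it. It is shown whole because CXCL8 differed most between the groups, with the AP-1 match first and the κB match second in capitals.
CXCL8 promoter: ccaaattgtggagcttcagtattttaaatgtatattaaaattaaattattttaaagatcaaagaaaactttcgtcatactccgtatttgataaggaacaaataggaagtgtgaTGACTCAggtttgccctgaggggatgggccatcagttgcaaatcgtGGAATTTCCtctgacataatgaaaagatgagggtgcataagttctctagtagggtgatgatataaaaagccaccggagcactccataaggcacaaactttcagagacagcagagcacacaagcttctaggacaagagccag

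The AP-1 motif searched was TGANTCA, on both strands, which occurred in 7.76% of the 27305 windows. Among the members only the CXCL8 window held it, starting 137 bases before the gene's start, and it did not overlap the κB letters. The palindromic SMAD motif GTCTAGAC occurred in 0.201% of all windows and in 0 of the 6, which says only that these letters are not in these windows. No binding was measured here, so a match describes the sequence alone.

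**Figure D1:**
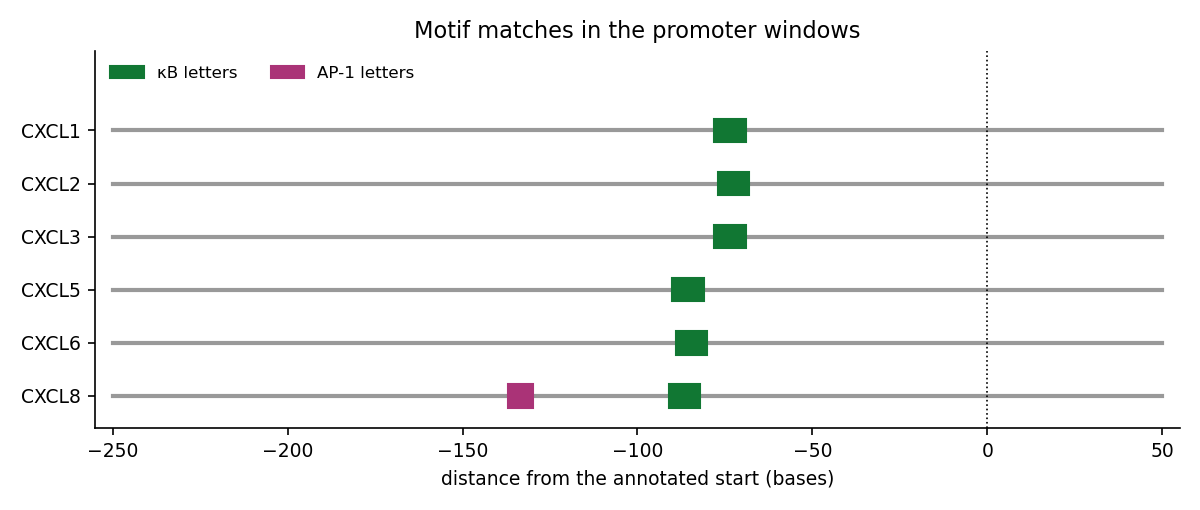
Positions of the κB letters (green) and the AP-1 letters (purple) in the promoter windows of the 6 CXCL genes. The horizontal axis is the distance in bases from the annotated start (dotted line), and grey lines show the window of 250 bases before to 50 after it. The κB letters lie 77 to 91 bases before the start in all 6 windows, and the AP-1 letters appear in the CXCL8 window.

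Signal was compared on deposited RMA values, which are log2 estimates of expression, 1 for each probe set and array. A probe set was called changed at a limma p below 0.05 after Benjamini-Hochberg adjustment over all 54613 probe sets. The array medians lay between 4.15 and 4.18, and arrays of a group correlated at 0.994 to 0.996. The 3′ over 5′ signal of the actin and GAPDH controls, a sign of RNA quality, was 1.19 and 1.15 (log2) on the untreated and treated arrays numbered 1 and 0.690 to 0.863 on the other 4. Of the epithelial marker list KRT6A, KRT17 and TP63 were not measured. All 8 measured epithelial markers lay above the median level of all probe sets (4.16), at 7.63 to 13.6. The keratin genes KRT14 and KRT8 among them were called higher, at 1.71-fold and 1.51-fold, and the adhesion gene EPCAM lower, at 1.62-fold. Of the 10 measured myeloid and neutrophil markers 0 were called and 3 lay above that median, with means of 2.33 to 5.60, and the leukocyte gene PTPRC stood at 2.76 and 2.57 in untreated and treated cells. The log2 of their summed linear signal was 7.17 to 7.38 on untreated and 7.35 to 7.47 on treated arrays. Of 6 lymphocyte and 6 endothelial markers 0 were called, and the summed signals were 6.76 to 6.91 against 6.65 to 6.99 and 7.21 to 7.23 against 7.13 to 7.31. Of 7 fibroblast markers 1, the collagen gene COL1A1, was called, at 2.99-fold higher, and the summed signal was 8.20 to 8.45 in untreated and 9.49 to 9.67 in treated cells. That sum is largely COL1A1 itself, which went from 7.80 to 9.37. The other 6 were not called, with means of 2.49 to 4.84. The part of these keratin, EPCAM and COL1A1 changes in the results on the chemokines was not tested. Of 11 measured TGF-β response genes 8 were called higher and 0 lower. Those with the smallest limma p were PMEPA1, RHOB, LTBP2 and CCN2, at 3.94-fold, 6.17-fold, 4.43-fold and 4.29-fold higher. Other RHOB probe sets, at dimmer levels, did not pass. SMAD7, the inhibitory SMAD, was 3.17-fold higher. The list was drawn up with earlier results of these data known, so it is no independent check of the treatment.

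By their highest-mean probe sets, 3 of the 6 chemokine genes were called lower in TGF-β1-treated cells, CXCL8, CXCL1 and CXCL2. For CXCL2 the call rests on a single probe set that can match other sequences. Its other probe sets were dim and not called (limma adjusted p = 0.665 and 0.775). At the level of probe sets, 4 of 11 were called lower and 0 higher, against 1.55% called lower and 1.69% called higher of all probe sets. CXCL8 was 3.90-fold and 5.49-fold lower on its 2 probe sets, while CXCL1 and CXCL2 were 1.99-fold and 1.89-fold lower. CXCL3 and CXCL6 had lower means in treated cells without passing the test, and CXCL5 stayed near the bottom of the signal range in both groups. Of the 11 probe sets 6 lay above the median level, among them all 4 that were called, and 2.85% of all probe sets above that level were called lower. Whether fewer cells made a transcript or each cell held less of it cannot be told apart in these bulk samples.

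**Figure D2:**
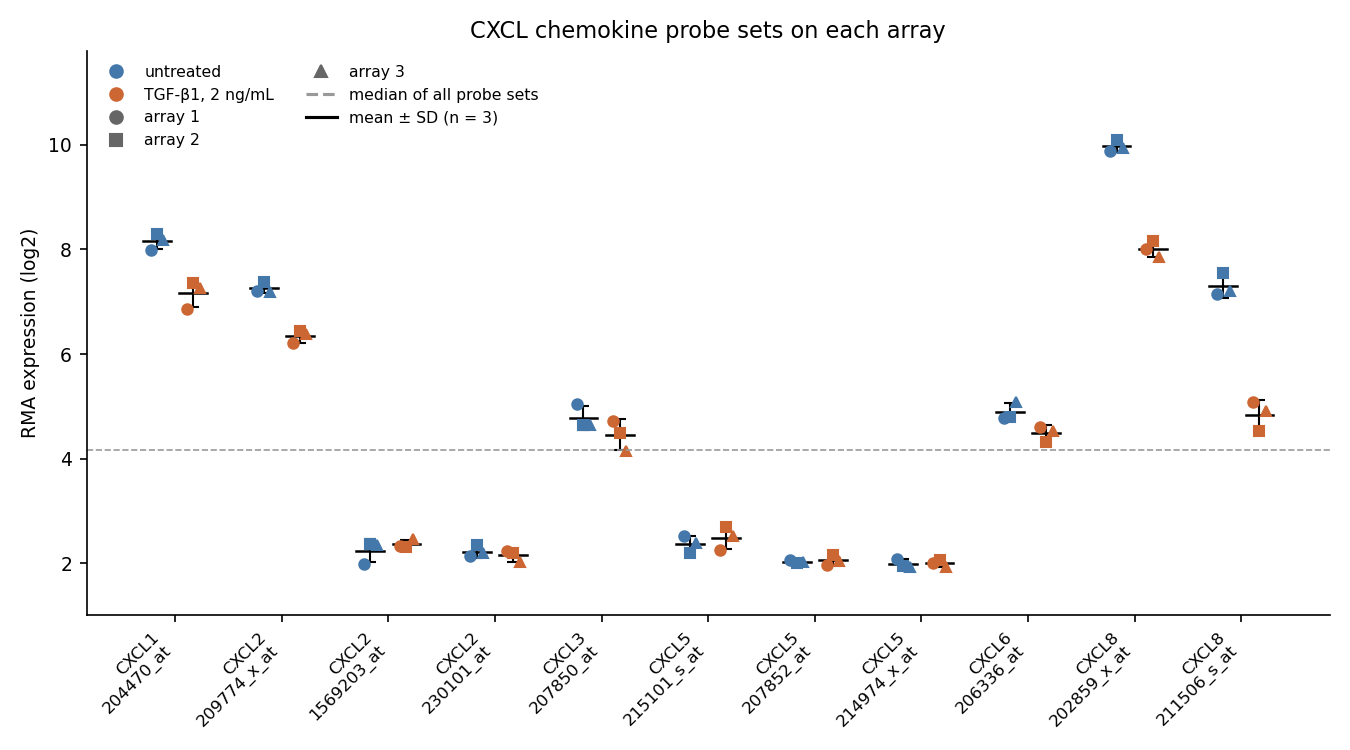
RMA expression (log2) of the 11 CXCL probe sets on each of the 6 arrays, with untreated cells in blue, TGF-β1 in orange and the array number as the symbol. Black lines are means with SD (n = 3), and the dashed line is the median of all probe sets (4.16). The groups stand apart for both CXCL8 probe sets, CXCL1, CXCL6 and the brightest CXCL2 probe set.

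CXCL8 encodes interleukin-8, the classical neutrophil attractant. Its brighter probe set, 202859_x_at, read 9.89, 10.09 and 9.93 on untreated arrays 1 to 3 and 8.01, 8.16 and 7.85 on treated arrays 1 to 3. All untreated values were above all treated values, and the gap between the closest arrays of the groups was 1.72, far more than the spread within a group. The means were 9.97 ± 0.107 and 8.01 ± 0.154 (SD, n = 3), a difference of -1.96 ± 0.105 (SE, log2; 95% interval -2.20 to -1.73; limma adjusted p = 3.87e-05). Among the differences of all 54613 probe sets this was the 7th lowest.

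The second CXCL8 probe set, 211506_s_at, read 7.14, 7.54 and 7.20 in untreated and 5.08, 4.52 and 4.91 in treated cells. Again no treated array reached the untreated range, with a gap of 2.06. The difference was -2.46 ± 0.160 (SE, log2; 95% interval -2.82 to -2.09; limma adjusted p = 0.000118), the 2nd lowest of all probe sets. Both CXCL8 probe sets carry a suffix: _x_at marks probes that can match other sequences and _s_at marks probes shared by several transcripts. The difference was 0.49 (log2) smaller on 202859_x_at than on 211506_s_at. The signal of the first minus that of the second was 2.55 to 2.75 on untreated and 2.92 to 3.64 on treated arrays (p = 0.1 in a two-sided exact permutation test, the smallest that 3 against 3 arrays allow). CXCL8 has no probe set without a suffix here, and the size of its fall depends on the probe set read.

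CXCL1 encodes GROα, a growth-regulated chemokine first known from melanoma cells. Its single probe set, 204470_at, carries no suffix and read 7.99, 8.30 and 8.18 in untreated and 6.86, 7.37 and 7.27 in treated cells. The groups did not overlap, with a gap of 0.63, and treated array 1 was the lowest of the 6. The means of 8.16 ± 0.155 and 7.16 ± 0.267 (SD, n = 3) differed by -0.99 ± 0.142 (SE, log2; 95% interval -1.32 to -0.67; limma adjusted p = 0.00733).

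CXCL2 encodes GROβ, and 1 of its 3 probe sets was called. This probe set, 209774_x_at, read 7.21, 7.37 and 7.19 in untreated and 6.21, 6.43 and 6.38 in treated cells. The groups were separated by 0.76, and the means of 7.26 ± 0.0979 and 6.34 ± 0.119 (SD, n = 3) differed by -0.92 ± 0.0958 (SE, log2; 95% interval -1.14 to -0.70; limma adjusted p = 0.00133). The suffix marks possible matches to other genes, and the GRO genes are close relatives in sequence. How far CXCL1 or CXCL3 transcripts add to this signal was not tested.

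The other CXCL2 probe sets carry no suffix and were dim. On 1569203_at the values were 1.98, 2.37 and 2.35 in untreated and 2.32, 2.30 and 2.46 in treated cells, a difference of 0.12 (95% interval -0.15 to 0.39). On 230101_at they were 2.13, 2.35 and 2.19 against 2.24, 2.20 and 2.01, a difference of -0.07 (95% interval -0.30 to 0.15). The groups overlapped on both, and limma adjusted p-values were 0.665 and 0.775. Only 7.55% and 4.51% of all probe sets lay below them, where little signal is left to fall. When the 3 probe sets of CXCL2 were averaged, the difference shrank to -0.29 and was no longer called (limma adjusted p = 0.0634).

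CXCL3 encodes GROγ. Its probe set, 207850_at, read 5.04, 4.65 and 4.65 in untreated and 4.73, 4.49 and 4.14 in treated cells. The groups overlapped, since treated array 1 lay above untreated arrays 2 and 3. The difference of -0.32 ± 0.164 (SE, log2; 95% interval -0.70 to 0.05) was not called (limma adjusted p = 0.373).

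CXCL6 encodes granulocyte chemotactic protein 2. Its probe set, 206336_at, read 4.77, 4.80 and 5.09 in untreated and 4.61, 4.33 and 4.53 in treated cells. These groups did not overlap, but the gap was 0.17, about the SD within a group (0.175 and 0.146). The difference was -0.40 ± 0.116 (SE, log2; 95% interval -0.66 to -0.13), with an unadjusted p of 0.00803 and a limma adjusted p of 0.12. It was called under none of the 17 alternative settings, whose adjusted p-values ran from 0.0567 to 0.314. In all, 5 of the 11 probe sets had groups that did not overlap, all of them lower with treatment, against 12.3% of all probe sets that were lower without overlap.

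CXCL5 encodes ENA-78, the epithelial neutrophil activator. Its probe set with the highest mean, 215101_s_at, read 2.51, 2.20 and 2.38 in untreated and 2.25, 2.69 and 2.52 in treated cells, a difference of 0.12 (95% interval -0.17 to 0.42). On 207852_at the values were 2.07, 2.00 and 2.01 against 1.96, 2.16 and 2.05, and on 214974_x_at 2.08, 1.95 and 1.93 against 2.00, 2.07 and 1.92. The groups overlapped on all 3, and adjusted p-values were 0.695, 0.902 and 0.968 (limma). Only 0.696% to 11.3% of all probe sets were dimmer, so a fall of CXCL5 below this level would not be visible.

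**Figure D3:**
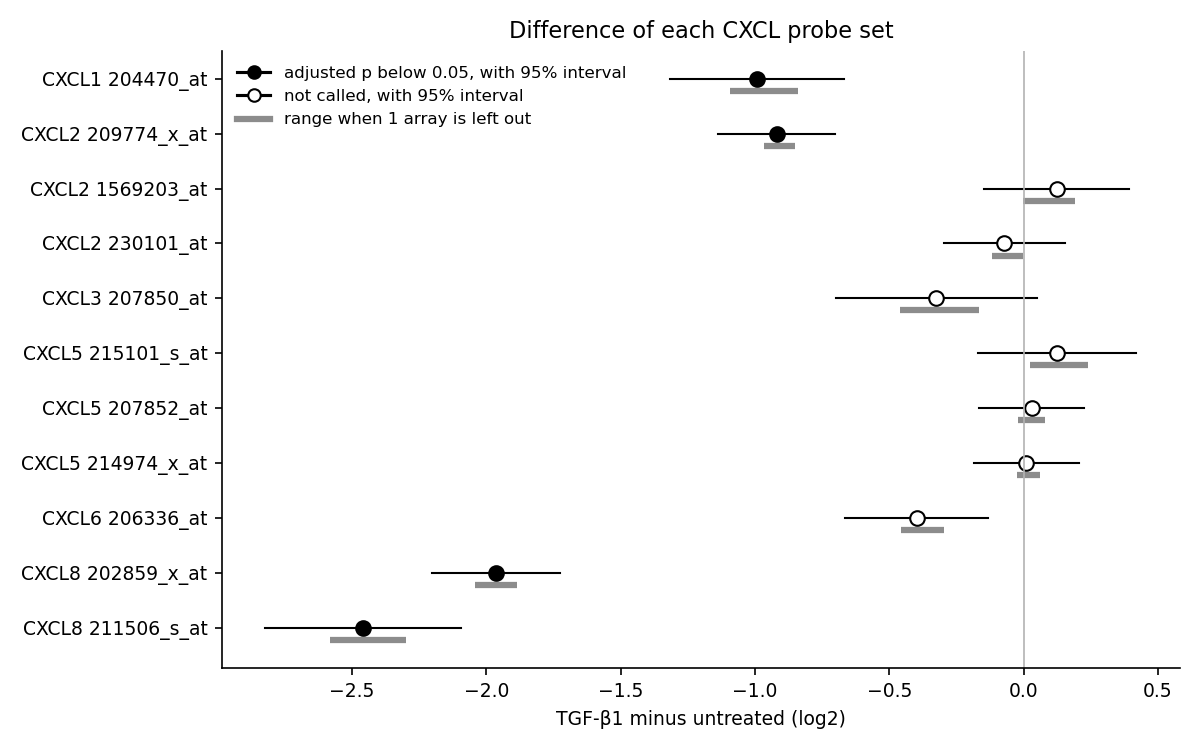
Difference between TGF-β1-treated and untreated cells (log2) for each CXCL probe set, with its 95% interval as a black line. Filled points passed the limma test (adjusted p below 0.05), and grey bars show the range of the difference when each of the 6 arrays was left out. The 4 filled points, at -2.46, -1.96, -0.99 and -0.92, keep their distance from 0, while the intervals of the other probe sets cross or approach it.

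The 4 calls did not rest on 1 array. Without any single array the CXCL8 differences stayed between -2.04 and -1.89 on 202859_x_at and between -2.58 and -2.30 on 211506_s_at, with adjusted p-values up to 0.000653 and 0.0015. CXCL2 on 209774_x_at stayed between -0.97 and -0.85 (up to 0.00873). CXCL1 stayed between -1.09 and -0.84, and its highest limma adjusted p was 0.0434, without untreated array 3. Without both arrays numbered 1, the pair with the higher 3′ over 5′ signal, CXCL8 on 202859_x_at differed by -2.01 and CXCL1 by -0.92, and the same 4 probe sets were called.

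The sizes of the members' changes were set against each other on each array. Between the highest-mean probe sets, the fall of CXCL8 was larger than that of CXCL1 by 0.97 (log2) and than that of CXCL2 by 1.04. In both cases the per-array difference between the genes separated the groups. The per-array difference between the CXCL8 probe sets, whose changes differed by 0.49, did so too. Such separation alone therefore does not set genes apart from probe sets. Against CXCL3, CXCL5 and CXCL6 the difference in change was 1.64, 2.09 and 1.57. These 3 genes lay at mean levels of 4.62, 2.43 and 4.69, against a median of 4.16 for all probe sets. RMA compresses differences of dim probe sets, and a fall of CXCL5 would not be visible. The value of 2.09 therefore does not show a weaker response of CXCL5. CXCL1 and CXCL2 differed from each other in their change by -0.07, which did not separate the groups. The CXCL2 probe set can match other sequences, and how far CXCL1 transcripts add to its signal was not tested. Of 15 pairs compared 8 reached an exact two-sided permutation p of 0.1, the smallest possible here, which became 0.188 after Benjamini-Hochberg adjustment, so none could pass.

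The position of the genes was set beside their change. In RefSeq's order along chromosome 4 the members run CXCL8, CXCL6, CXCL1, CXCL5, CXCL3, CXCL2, with 3 platelet chemokine genes among them. These 3, PF4V1, PF4 (platelet factor 4) and PPBP (platelet basic protein, which also carries the ELR motif), were dim at levels of 2.07 to 3.86 and 0 were called, with differences of 0.04, -0.03 and 0.06. Of 15 neighbouring genes that are no members, counting 6 on either side of the cluster, 13 were measured. Of these 1 was called lower and 0 higher, against 2.37% and 2.51% of all genes by their highest-mean probe set.

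The 1 neighbour called was MTHFD2L, a mitochondrial folate enzyme gene and the next gene after CXCL2. Its probe set 238762_at went from 6.74 ± 0.0230 to 6.01 ± 0.101 (SD, n = 3), which is 1.66-fold lower (limma adjusted p = 0.00241), and the call held without each array. A second MTHFD2L probe set, 239562_at, differed by -0.47 (adjusted p = 0.0472), while its 6 other probe sets, at dimmer levels, did not pass. On the other side of the cluster RASSF6, a Ras association domain gene, lay at 3.42 and 3.12 without passing.

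Among other CXC chemokines, 8 genes without the ELR motif or of uncertain class were measured and 0 were called. CXCL16, a membrane-bound attractant of T cells, went from 8.05 ± 0.0933 to 7.54 ± 0.265 (SD, n = 3), without overlap between the groups (adjusted p = 0.083). It was called lower under 5 of the 17 alternatives (limma adjusted p = 0.0128 to 0.0487), which were the filter at the median level, 1 or averaged probe sets per gene, the trended robust variance and the 3′ to 5′ covariate. Under the other 12, those without a single array included, it was not called (limma adjusted p = 0.0653 to 0.25). CXCL12, the ligand of CXCR4, lay at 3.86 and 4.02, below the median level. Of the 8 genes only CXCL16 and CXCL9, an interferon-induced attractant of T cells at 4.27 and 4.48, lay above that level. The median difference of these 8 genes was 0.09, against 0.00 for all genes.

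Receptors of the chemokines were near the bottom of the signal range or did not pass. CXCR2 stood at 2.34 and 2.40, and CXCR1 at 5.31 and 5.26. Of 8 genes for receptors, scavengers and chemokine-binding syndecans, 1 was called, the syndecan SDC1, which was 1.49-fold higher (adjusted p = 0.0321). That call held without treated array 1 (adjusted p = 0.0168) and was lost without any of the other 5 arrays (limma adjusted p up to 0.112). A second SDC1 probe set, 201287_s_at, differed by 0.33 without passing (limma adjusted p = 0.091).

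Of 18 upstream cytokines and receptors 1 was lower and 1 higher, with a median of 0.00. IL1R1, the receptor through which interleukin-1 induces these chemokines, went from 8.08 ± 0.0972 to 7.58 ± 0.0813 (SD, n = 3), 1.41-fold lower (adjusted p = 0.0216). The IL1R1 call held without untreated array 1 (adjusted p = 0.035) and was lost without any of the others (limma adjusted p up to 0.0991). A second IL1R1 probe set, 215561_s_at, below the median level, differed by -0.27 without passing. LIF, an interleukin-6 family cytokine, was 1.44-fold higher (adjusted p = 0.0411), a call that held without treated array 1 and was lost without any other (limma adjusted p up to 0.137).

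Within the NF-κB pathway 2 of 19 measured genes were lower and 0 higher, with a median of 0.00. NFKBIA, the inhibitor IκBα and itself an NF-κB target, was 1.32-fold lower (9.83 ± 0.0749 to 9.43 ± 0.0494, SD, n = 3; adjusted p = 0.0361). IKBKB, the kinase that marks it for destruction, was 1.35-fold lower (adjusted p = 0.0477). Each of these calls was lost whichever array was left out (limma adjusted p up to 0.139 for NFKBIA and 0.163 for IKBKB), and with the replicate number as a block (0.0761 and 0.0596). A second NFKBIA probe set, 231699_at, differed by -0.10 without passing. The other IKBKB probe sets, 209342_s_at and 211027_s_at, differed by -0.30 and -0.38, also without passing.

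AP-1 and C/EBP factors act with NF-κB on promoters of this family. Of 12 such genes 9 were not called, 2 were higher and 1 was lower, with a median of -0.04. ATF3, a stress-induced repressor and activator, was 2.54-fold higher (limma adjusted p = 0.000143) and JUNB, an AP-1 subunit, 1.68-fold higher (adjusted p = 0.00116). A second ATF3 probe set also rose, by 1.06, and the third, at a level near the median, differed by -0.14 without passing. CEBPD, a C/EBP factor of the inflammatory response, was 1.40-fold lower (adjusted p = 0.0342), a call lost without any single array (limma adjusted p up to 0.126) and with the replicate block (0.0642). A second CEBPD probe set, 213006_at, below the median level, differed by -0.05 without passing.

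Of 12 measured genes that govern AU-rich mRNAs 2 were higher and 0 lower, with a median of -0.05. DUSP1, a phosphatase that switches off the p38 kinase which stabilises such mRNAs, was 3.21-fold higher on 201041_s_at (limma adjusted p = 9.5e-05). Its other probe sets, 226578_s_at and 201044_x_at, differed by -0.001 and 0.15 without passing. ZFP36L1, which binds AU-rich elements and promotes decay, was 1.57-fold higher (10.0 ± 0.0539 to 10.7 ± 0.0735, SD, n = 3; limma adjusted p = 0.00378), and 1 of its dimmer probe sets rose by 0.65. The other 2, below the median level, differed by -0.03 and -0.07 without passing. The ZFP36L1 call held without each single array and was lost without both numbered 1 (limma adjusted p = 0.0515).

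Of 13 measured genes for other signals between epithelium and neutrophils 10 were not called, 2 were lower and 1 was higher, with a median of -0.02. S100A9, a calcium-binding protein of inflamed epithelium, was 1.86-fold lower (limma adjusted p = 0.00722), and it was called without any single array but not without both arrays numbered 1 (0.0575). The complement gene C3 was 1.53-fold lower (adjusted p = 0.0262), a call lost without any untreated array or treated array 3 (limma adjusted p up to 0.109). MMP9, a gelatinase, was 1.78-fold higher (adjusted p = 0.0206), a call kept without treated array 1 and lost without any of the other 5 arrays, and also with the replicate block (limma adjusted p = 0.058). CCL20, another NF-κB target chemokine, lay at 2.76 and 2.60.

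**Figure D4:**
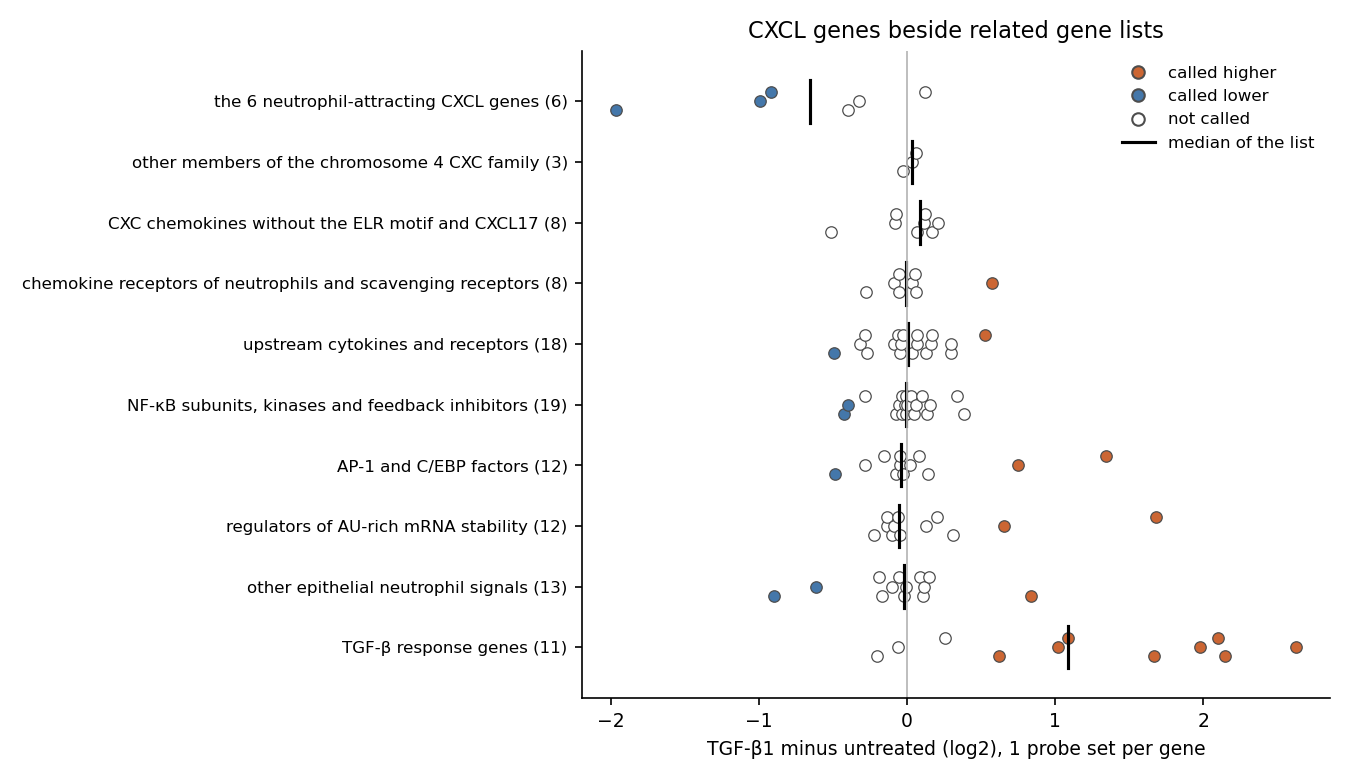
Difference between TGF-β1-treated and untreated cells (log2) for the 6 CXCL genes and for genes of 9 related lists, 1 point per gene by its highest-mean probe set. Orange points were called higher, blue points lower and open points not called, black bars are list medians, and numbers in brackets are genes measured. The median of the CXCL genes (-0.66) is the lowest shown, and that of the TGF-β response genes (1.08) the highest.

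Other genes had a like profile over the 6 arrays, measured as the root mean square distance between log2 values centred on each gene's mean. For CXCL8 the 3 closest genes were HS3ST1, a heparan sulfate sulfotransferase, at 0.166, the cytochrome P450 gene CYP1B1 at 0.199 and the protease gene MMP7 at 0.200. On these probe sets they were 3.60-fold, 3.12-fold and 4.01-fold lower in treated cells, although the 2 dimmer probe sets of HS3ST1 and 1 of CYP1B1 did not pass. For CXCL1 the closest were ID1, an inhibitor of helix-loop-helix factors, at 0.0833, S100A9 at 0.0890 and the annexin gene ANXA9 at 0.0967. For CXCL2 they were SERPINB1, an inhibitor of neutrophil elastase, at 0.0536, the adipogenesis regulator gene ADIRF at 0.0591 and BID, which encodes a pro-apoptotic BCL2 family protein, at 0.0634. SERPINB1 was 1.77-fold lower and BID 1.92-fold lower, and 3 probe sets of each were called. Another SERPINB1 probe set, 239213_at, differed by -0.12 without passing (limma adjusted p = 0.605). The ANXA9 call was lost in 3 of 6 fits without 1 array (limma adjusted p up to 0.0979). A second ANXA9 probe set, 210085_s_at, did not pass (limma adjusted p = 0.209). This likeness rests on 6 arrays in 2 groups and reflects the group difference first.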

How the data were processed

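Per the submitters' processing notes, the authors made the deposited log2 values with Affymetrix Expression Console and RMA, which corrects background, equalises arrays and summarises probes. No versions are named in these notes, the values themselves show the log2 scale, and detection calls were not used here. RMA compresses differences of dim probe sets. Names came from the platform annotation, updated through a RefSeq table (GRCh38.p14), which also gave promoters and gene order.

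All 54613 probe sets, without 62 controls, were tested across the whole table with limma 3.58.1 in R 4.3.3 (no covariate, no filter, no block), with Benjamini-Hochberg adjustment. The fit was tested on simulated data with independent noise for each value. These data held no effect shared within an array or between arrays of a number, so the test does not cover such effects. In gene lists each gene was its highest-mean probe set; 141 of 156 list and marker genes had one and the others were not analysed here. Of each list, up to 4 called genes with the smallest p were named, or the 2 smallest where none was called. PTPRC, COL1A1, CXCR1, CXCR2, RASSF6, CCL20, CXCL9, KRT14, KRT8, EPCAM and SMAD7 were named outside this rule, with values in view. So were the κB genes in the closing section. Members, lists and motifs were chosen with earlier results of these data known. Arrays limit precision by their number, 3 per group.

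Arrays with the same number in both groups, taken as deviations from the group mean, correlated at 0.181, 0.0392 and 0.0794. Of 6 arrays 4 correlated best with the array of their own number, and both numbered 1 had the higher 3′ over 5′ signal. The labels state no pairing, so the reported fit used none, and a replicate block was run as an alternative. Whether arrays of a number shared a batch was not tested. Alternatives were quantile normalisation, median centring, a filter at the median level, 1 or averaged probe sets per gene, removal of suffixed probe sets, a trended robust variance, array weights, a replicate block, a 3′ to 5′ covariate, and removal of arrays.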

Additional observations from a re-analysis of the deposited data

How the results depend on the processing

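Of the 11 CXCL probe sets 4 were called lower in the reported fit. The same 4 were called after repeated quantile normalisation, median centring, the filter at the median level, the trended robust variance, array weights, the replicate block and the 3′ to 5′ covariate, and without each array or both numbered 1. With averaged probe sets 2 genes were lower, since CXCL2 was lost, and without suffixed probe sets 1 was lower, CXCL1, since fewer probe sets remain. In no setting was a member called higher. The number called of all probe sets moved more. It was 848 lower and 923 higher in the reported fit, 1734 and 1495 with the filter, 412 and 478 without suffixed probe sets, 2149 and 1693 with the trended robust variance and 205 and 383 without both arrays numbered 1. Without single arrays it was 273 to 502 lower and 508 to 707 higher. With the replicate block it was 521 and 677. No other call on the members changed with the block, and 4 of 6 arrays had their best correlation with the array of that number. Tests of 1 probe set per gene called CXCL8, CXCL1 and CXCL2 lower, among 884 lower and 796 higher of 19775 genes. Of 306 counts for the gene lists, 237 stayed within 1.5 times the reported count, with 0 against 0 taken as unchanged. Many of these counts are 0 or small, so this share says little about stability. Except where a value shows it, the cause was not tested. Dim signal limits CXCL5 and the 2 dim CXCL2 probe sets, where no fall could be seen.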

Other observations

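Apart from the 6 members, 63 measured genes had the κB letters GGAATTTCC in their promoter window. Of these 2 were called lower and 2 higher (3.17% each), against 2.46% and 2.58% of the 15384 measured genes with a promoter window. The lower genes were NFKBIA and MAP3K8, a kinase that acts downstream of tumour necrosis factor, at -0.40 and -0.62 (log2). The higher genes were COL7A1, the collagen of anchoring fibrils, at 1.05, and CGA, the glycoprotein hormone alpha chain, at 0.41. The NFKBIA call was lost whichever array was left out (limma adjusted p up to 0.139). Such fits are not given here for MAP3K8, COL7A1 and CGA. The median difference of the 63 genes was 0.03. These 4 genes were named after their values were seen.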
